A study of Rattus norvegicus with 119 samples.

Results

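The 6 genes that encode the NMDA receptor subunits Grin1, Grin2a, Grin2b, Grin2c, Grin2d and Grin3a were followed across the hippocampus of 40 Fischer, 40 Long Evans and 39 Sprague Dawley rats. A gene was taken when a probe set on the array had that gene as its only symbol, and each gene had exactly 1 such probe set, so the members were 6 of the 29214 probe sets measured. Each rat gave 1 array, and the values are log2 intensities. Both sexes were studied in each of the 3 strains, and their food held lead acetate at 250 ppm or 750 ppm, or was control food. Perinatal exposure was given through the dams from 10 days before breeding until weaning, after which the pups ate control food. Postnatal exposure was given from birth to postnatal day 45 and was also followed by control food. The controls of a strain and sex served both periods, since the labels do not part them. All tissue was taken on postnatal day 55, which was 10 days or more after the last lead food. That gave 24 lead-exposed groups and 6 control groups, with 4 rats each except for 3 Sprague Dawley male controls, so that 96 exposed rats stood against 23 controls. The labels give no litters, so that the animals were treated as independent and p-values measure the spread between these animals. Lead in blood or brain is not given in the labels used here.

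NMDA receptors are glutamate-gated channels that pass calcium when glutamate and a co-agonist are bound and the membrane is depolarised, which makes them detectors of coincident activity in hippocampal plasticity. Every receptor holds GluN1, the product of Grin1, together with GluN2 subunits (Grin2a to Grin2d), which bind glutamate and set the kinetics, or GluN3 subunits (Grin3a), which bind glycine and lower calcium entry. In rat forebrain GluN2B and GluN3A dominate in early postnatal life and GluN2A takes a larger share with maturation. Lead ions inhibit currents through these receptors, and this is the reason that subunit transcripts are often measured after lead exposure.

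The genes lie on 5 chromosomes in the GRCr8 annotation. Grin1 is at chr3:28501836-28528754, Grin2a at chr10:6136458-6560003, Grin2b at chr4:170297811-170775420, Grin2c at chr10:100987410-101006064, Grin2d at chr1:105443317-105483400 and Grin3a at chr5:68802333-69001880. The exons that the probe sets cover were not analysed here. A probe set level depends on its own probes, so that levels of different genes were not set against each other. In bulk tissue, fewer cells of a type and less RNA per cell cannot be told apart.

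RefSeq promoter windows, with 250 bases before and 50 after the annotated start, were at hand for 4 of the 6 genes (Grin1, Grin2c, Grin2d and Grin3a). Those of Grin1, Grin2d and Grin3a are shown because of how these genes varied over arrays. With strain differences left in, Grin2d and Grin3a correlated at 0.66 over all arrays. Grin1, the subunit that every receptor needs, correlated with Grin2d at -0.36 and with Grin3a at -0.16. All 3 windows are on the minus strand of GRCr8, written 5′ to 3′ in the direction of the gene, and CpG dinucleotides are in capitals.
Grin1 at chr3:28528705-28529004: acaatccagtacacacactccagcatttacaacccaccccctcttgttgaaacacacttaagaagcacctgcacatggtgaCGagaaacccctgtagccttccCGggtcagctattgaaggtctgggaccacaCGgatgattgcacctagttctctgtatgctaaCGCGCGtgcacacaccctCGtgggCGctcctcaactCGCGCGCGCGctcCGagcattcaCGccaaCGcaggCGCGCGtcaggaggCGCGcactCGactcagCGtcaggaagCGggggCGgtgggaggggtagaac
Grin2d at chr1:105481187-105481486: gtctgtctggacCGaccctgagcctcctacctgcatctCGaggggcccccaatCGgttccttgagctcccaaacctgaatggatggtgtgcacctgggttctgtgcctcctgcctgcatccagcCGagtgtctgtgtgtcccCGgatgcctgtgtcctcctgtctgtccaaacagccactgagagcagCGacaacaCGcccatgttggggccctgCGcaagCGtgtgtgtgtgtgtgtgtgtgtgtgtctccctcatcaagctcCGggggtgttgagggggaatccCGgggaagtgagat
Grin3a at chr5:69001509-69001808: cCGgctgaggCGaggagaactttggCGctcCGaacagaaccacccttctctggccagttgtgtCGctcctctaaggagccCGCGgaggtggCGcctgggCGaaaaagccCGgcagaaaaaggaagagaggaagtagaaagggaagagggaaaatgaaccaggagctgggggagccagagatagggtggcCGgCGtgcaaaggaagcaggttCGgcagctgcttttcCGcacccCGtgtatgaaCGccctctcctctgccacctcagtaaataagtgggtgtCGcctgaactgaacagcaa
The Grin2c, Grin2d and Grin3a windows lie inside the annotated span of their genes. The window of Grin1 held 25 CpG dinucleotides, that of Grin3a 17 and those of Grin2c and Grin2d 11 each, against a median of 7 over all 33469 promoters of the table. Bases G and C made up 59.7% of the Grin1 window, 60.7% of the Grin2d window and 58.7% of the Grin3a window, against a median of 51.7% over all promoters. On both strands together, the GC box core GGGCGG occurred 1 time in the Grin1 window and TGACG, the short site for factors that respond to cyclic AMP, 3 times, and neither was in the other 3 windows. Of all promoters, 33.1% held the GC box core and 21.2% held TGACG. The E-box CANNTG was found 2 times in the Grin1 and Grin3a windows and 1 time in those of Grin2c and Grin2d, and 72.1% of all promoters held it.

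Array medians ran from 7.36 to 7.57, and correlations between arrays from 0.979 to 0.997. The animal numbers that end the labels allowed each group to be parted into its lower 2 and its upper 2 numbers, and in Fischer rats these label-number sets stood apart over many probe sets. For 8 arrays (3 Long Evans, 5 Sprague Dawley, 4 of them controls), X-linked transcripts were nearer to the other sex than to the labelled sex of their strain and label-number set. Those 8 sex-discordant arrays were kept, and values without them are given beside the lead, strain and label-number results. Replicates 1 and 3 of the 4 Long Evans female controls are among them. Without these arrays, all lead effects of Long Evans females rest on the few controls that remain. Of the markers of hippocampal principal neurons 8 of 9 had a probe set, with array means of the list from 10.41 to 10.73. So did those of interneurons (8 of 8, 9.46 to 10.01) and astrocytes (7 of 7, 11.27 to 11.65). Single markers lay lower, such as Spink8 (5.96) among those of principal neurons and Vip (7.10) among those of interneurons. Markers of choroid plexus (9 of 10) varied most, with array means from 6.76 to 10.71. Those of thalamus (5 of 7) ran from 8.09 to 8.93, of neocortex (2 of 7) from 8.42 to 9.23 and of cerebellum (7 of 7) from 6.62 to 7.65. No marker of any of the 7 lists was called in the mean lead effect of any strain.

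No lead effect on any of the 6 subunit transcripts passed the threshold in any strain, sex, period or dose. The 144 differences between an exposed group and its controls lay between -0.27 and 0.20 on the log2 scale. Their 95% confidence intervals reached no lower than -0.49, a 0.714-fold level, and no higher than 0.38, a 1.31-fold level. Averaged over the 8 exposed groups of a strain, the differences lay between -0.11 and 0.083, and the intervals between -0.23 (0.852-fold) and 0.15 (1.11-fold). The limma test called 0 of the 144 differences at an adjusted p under 0.05, against 0.0175% of all probe set tests in the same 24 contrasts (0% to 0.133% in single contrasts). At an unadjusted p under 0.05 it passed 7 of 144, against 4.05% of all tests. Exposed and control arrays did not overlap in 6 of the 144, against 2.8% of all. Without the sex-discordant arrays the 144 differences lay between -0.24 and 0.22, the intervals between -0.53 and 0.38, and 9 passed unadjusted and 0 with adjustment. The 4 contrasts of a strain and sex share their controls, so their signs are not independent.

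**Figure D1:**
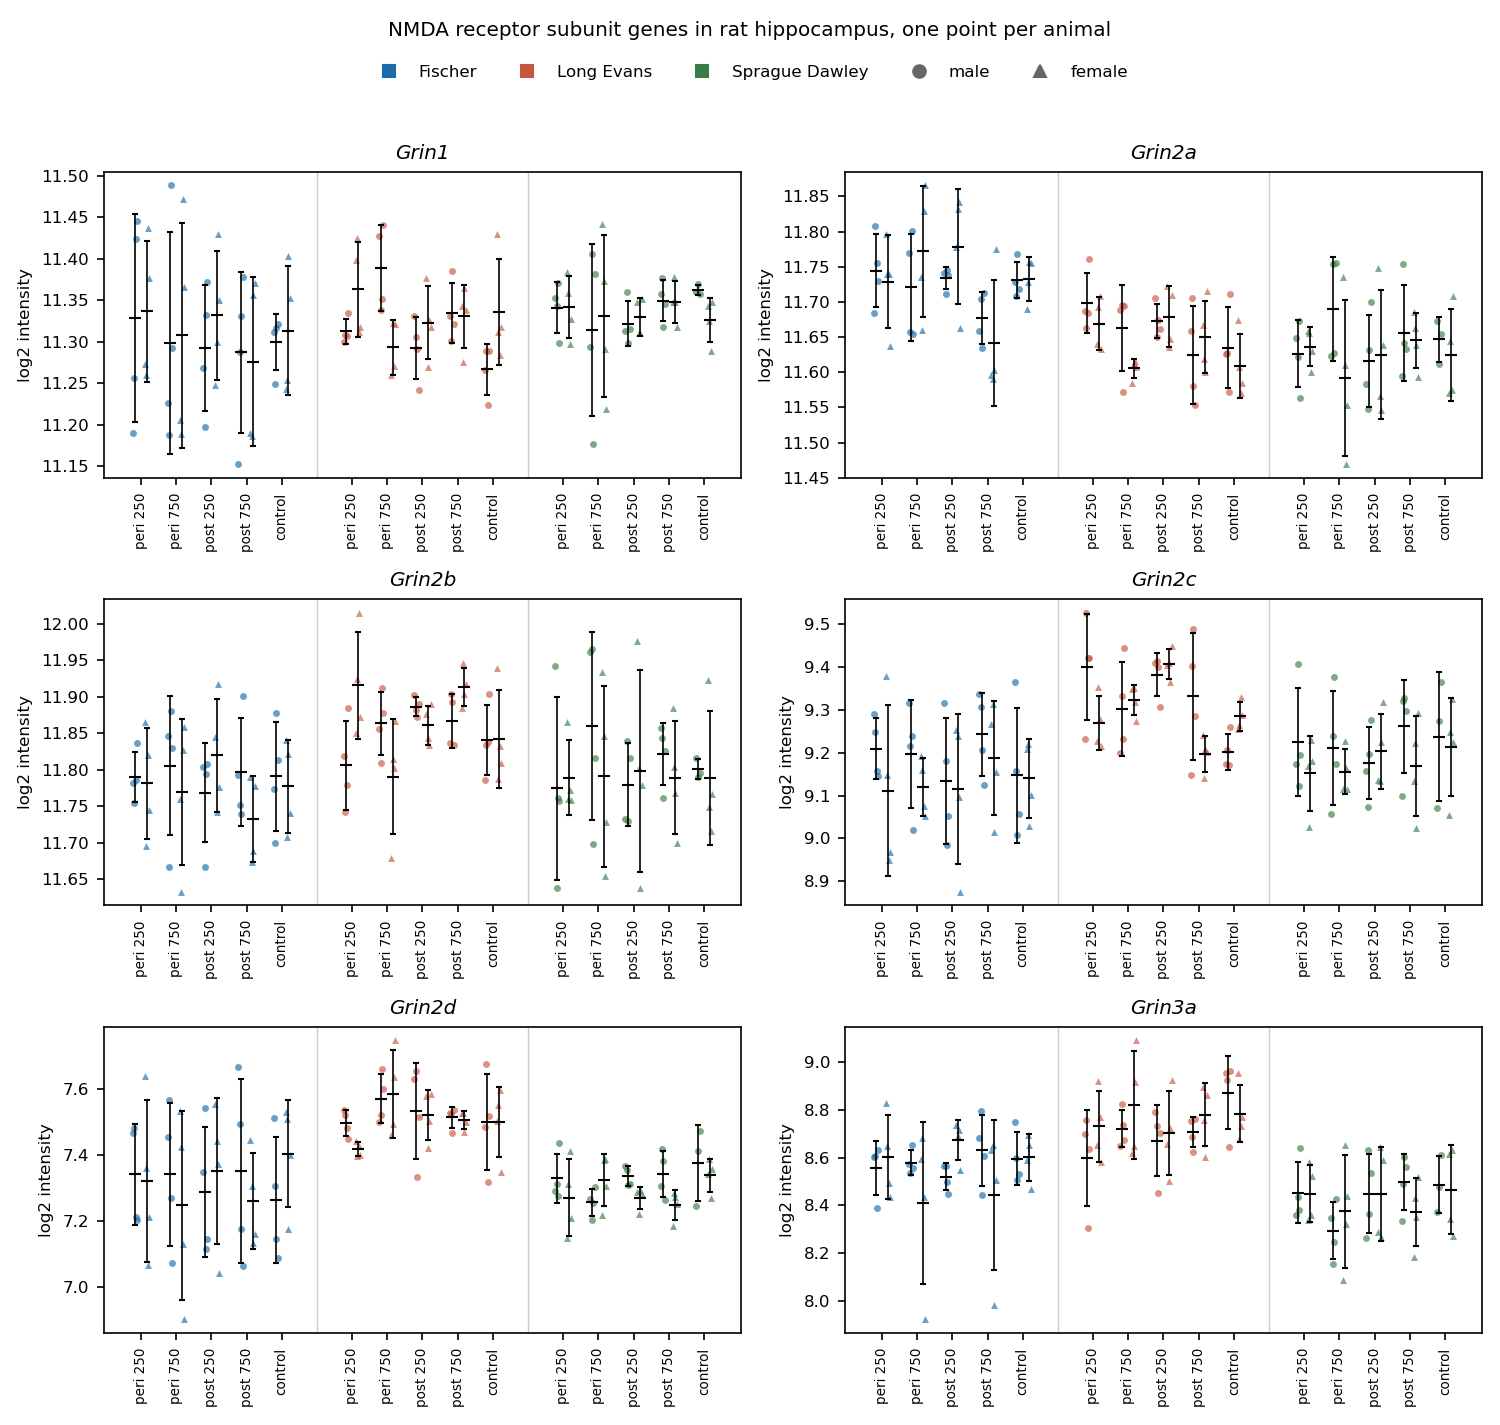
Log2 intensity of the 6 subunit genes in each rat. Each panel is a gene, with the groups of Fischer, Long Evans and Sprague Dawley rats along the horizontal axis, lead-exposed groups left of the control group, circles for males, triangles for females and bars for the mean ± SD. The exposed and control points of a strain share most of their range in every panel, and Long Evans points sit highest for Grin2d and Grin3a.

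Grin1 encodes the obligatory subunit and had the narrowest span of group means of the 6 members, with a pooled SD within groups of 0.069 on the log2 scale. For Grin1, Fischer males averaged 11.33 ± 0.13 after perinatal 250 ppm, 11.30 ± 0.13 after perinatal 750 ppm, 11.29 ± 0.076 after postnatal 250 ppm and 11.29 ± 0.097 after postnatal 750 ppm, against 11.30 ± 0.034 in controls (log2 means ± SD over 4 rats, or 3 in the Sprague Dawley male controls). For Grin1 in Fischer females the means were 11.34 ± 0.085, 11.31 ± 0.14, 11.33 ± 0.078 and 11.28 ± 0.10 in the same order of groups, against 11.31 ± 0.078 in controls. The 8 Fischer differences from controls ran from -0.037 to 0.029, and exposed and control arrays overlapped in all of them. For Grin1, Long Evans males averaged 11.31 ± 0.015 after perinatal 250 ppm, 11.39 ± 0.052 after perinatal 750 ppm, 11.29 ± 0.037 after postnatal 250 ppm and 11.33 ± 0.036 after postnatal 750 ppm, against 11.27 ± 0.031 in controls. For Grin1 in Long Evans females the means were 11.36 ± 0.057, 11.29 ± 0.033, 11.32 ± 0.044 and 11.33 ± 0.038 in the same order of groups, against 11.34 ± 0.064 in controls. Among Long Evans males all 4 exposed groups had means above the control mean, and in 3 of them no array overlapped with the controls. These were the groups at perinatal 250 ppm, perinatal 750 ppm and postnatal 750 ppm. In the same contrasts 2.69%, 3.44% and 5.24% of all probe sets did not overlap. The 3 groups share the same 4 controls. The arrays after perinatal 750 ppm stood at 11.43, 11.34, 11.35 and 11.44, against 11.27, 11.29, 11.22 and 11.29 in controls. That difference was 0.12 (95% confidence interval 0.044 to 0.20), and it did not pass with adjustment (limma adjusted p 0.41). It was 0.13 (0.046 to 0.21) without the sex-discordant arrays. Among Long Evans females the differences ran from -0.043 to 0.027. For Grin1, Sprague Dawley males averaged 11.34 ± 0.031 after perinatal 250 ppm, 11.31 ± 0.10 after perinatal 750 ppm, 11.32 ± 0.027 after postnatal 250 ppm and 11.35 ± 0.025 after postnatal 750 ppm, against 11.36 ± 0.0061 in controls. For Grin1 in Sprague Dawley females the means were 11.34 ± 0.037, 11.33 ± 0.097, 11.33 ± 0.023 and 11.35 ± 0.025 in the same order of groups, against 11.33 ± 0.027 in controls. Sprague Dawley differences lay between -0.048 and 0.022, and between -0.070 and 0.021 without the sex-discordant arrays. Ordered by mean, the 30 groups spanned 0.12, from 11.39 ± 0.052 in Long Evans males after perinatal 750 ppm to 11.27 ± 0.031 in Long Evans male controls, so both ends came from the same strain and sex. No step between neighbours in that order exceeded 0.026, which is under the pooled SD. With 30 ordered means such steps are small in any case. Here and for the other genes they therefore do not tell whether groups differ.

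Grin2a encodes GluN2A, the subunit that gives fast deactivation and gains weight as the forebrain matures. For Grin2a, Fischer males averaged 11.74 ± 0.052 after perinatal 250 ppm, 11.72 ± 0.076 after perinatal 750 ppm, 11.73 ± 0.015 after postnatal 250 ppm and 11.68 ± 0.037 after postnatal 750 ppm, against 11.73 ± 0.026 in controls. For Grin2a in Fischer females the means were 11.73 ± 0.066, 11.77 ± 0.093, 11.78 ± 0.082 and 11.64 ± 0.090 in the same order of groups, against 11.73 ± 0.031 in controls. The Fischer female group at postnatal 750 ppm had 3 arrays between 11.59 and 11.60 and the last at 11.78, against 11.69, 11.73, 11.76 and 11.76 in controls, and the difference was -0.091 (-0.20 to 0.015). The other Fischer differences ran from -0.054 to 0.046. For Grin2a, Long Evans males averaged 11.70 ± 0.043 after perinatal 250 ppm, 11.66 ± 0.061 after perinatal 750 ppm, 11.67 ± 0.024 after postnatal 250 ppm and 11.62 ± 0.070 after postnatal 750 ppm, against 11.63 ± 0.058 in controls. For Grin2a in Long Evans females the means were 11.67 ± 0.038, 11.61 ± 0.014, 11.68 ± 0.044 and 11.65 ± 0.052 in the same order of groups, against 11.61 ± 0.046 in controls. Long Evans differences lay between -0.010 and 0.070. For Grin2a, Sprague Dawley males averaged 11.63 ± 0.047 after perinatal 250 ppm, 11.69 ± 0.074 after perinatal 750 ppm, 11.62 ± 0.066 after postnatal 250 ppm and 11.66 ± 0.069 after postnatal 750 ppm, against 11.65 ± 0.031 in controls. For Grin2a in Sprague Dawley females the means were 11.64 ± 0.027, 11.59 ± 0.11, 11.63 ± 0.091 and 11.65 ± 0.039 in the same order of groups, against 11.62 ± 0.065 in controls. Sprague Dawley differences lay between -0.033 and 0.043. None of the 24 Grin2a differences passed even without adjustment. With the sex-discordant arrays left out, all 8 Long Evans differences were positive, between 0.0098 and 0.090, and the highest of them, in males at perinatal 250 ppm, passed unadjusted. Those of a sex share its remaining controls, which are fewest in females. The order of the groups followed strain more than lead: 8 of the 10 highest means were Fischer, and the 10 lowest were 6 Sprague Dawley and 4 Long Evans groups. The span was 0.19, from 11.78 ± 0.082 in Fischer females at postnatal 250 ppm to 11.59 ± 0.11 in Sprague Dawley females at perinatal 750 ppm. The largest step between neighbours was 0.028, against a pooled SD of 0.060.

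Grin2b encodes GluN2B, which is present from embryonic life and anchors the kinase CaMKII. For Grin2b, Fischer males averaged 11.79 ± 0.034 after perinatal 250 ppm, 11.81 ± 0.095 after perinatal 750 ppm, 11.77 ± 0.068 after postnatal 250 ppm and 11.80 ± 0.074 after postnatal 750 ppm, against 11.79 ± 0.074 in controls. For Grin2b in Fischer females the means were 11.78 ± 0.076, 11.77 ± 0.10, 11.82 ± 0.077 and 11.73 ± 0.059 in the same order of groups, against 11.78 ± 0.063 in controls. Fischer differences from controls ran from -0.045 to 0.043. For Grin2b, Long Evans males averaged 11.81 ± 0.061 after perinatal 250 ppm, 11.86 ± 0.043 after perinatal 750 ppm, 11.89 ± 0.013 after postnatal 250 ppm and 11.87 ± 0.037 after postnatal 750 ppm, against 11.84 ± 0.048 in controls. For Grin2b in Long Evans females the means were 11.92 ± 0.073, 11.79 ± 0.079, 11.86 ± 0.027 and 11.91 ± 0.026 in the same order of groups, against 11.84 ± 0.067 in controls. In Long Evans rats the differences ran from -0.052 to 0.073, with the highest of them in females at perinatal 250 ppm. For Grin2b, Sprague Dawley males averaged 11.77 ± 0.13 after perinatal 250 ppm, 11.86 ± 0.13 after perinatal 750 ppm, 11.78 ± 0.057 after postnatal 250 ppm and 11.82 ± 0.042 after postnatal 750 ppm, against 11.80 ± 0.014 in controls. For Grin2b in Sprague Dawley females the means were 11.79 ± 0.051, 11.79 ± 0.12, 11.80 ± 0.14 and 11.79 ± 0.077 in the same order of groups, against 11.79 ± 0.092 in controls. Sprague Dawley differences lay between -0.026 and 0.060. None of the 24 Grin2b differences passed without adjustment. Once the sex-discordant arrays were left out, 2 did, both in Long Evans females, with 0.12 (0.012 to 0.22) at perinatal 250 ppm and 0.11 (0.0092 to 0.22) at postnatal 750 ppm. Both share the female controls that remain after replicates 1 and 3 were dropped. The means spanned 0.18, from 11.92 ± 0.073 in Long Evans females at perinatal 250 ppm to 11.73 ± 0.059 in Fischer females at postnatal 750 ppm, and 8 of the 10 highest were Long Evans groups. The largest step between neighbours was 0.036, against a pooled SD of 0.076.

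The balance of Grin2a to Grin2b is often followed as a sign of receptor maturation, and as a difference of log2 values it can be compared between groups, though its own level depends on the probes. Grin2a minus Grin2b averaged -0.058 in exposed and -0.053 in control Fischer rats. The values were -0.205 in exposed and -0.220 in control Long Evans rats, and -0.165 in exposed and -0.159 in control Sprague Dawley rats. Exposed minus control was thus -0.0058, 0.014 and -0.0058 in the 3 strains, which is small beside the SD over arrays of a strain. The difference averaged -0.208 ± 0.064 over 40 Long Evans arrays, -0.164 ± 0.077 over 39 Sprague Dawley arrays and -0.057 ± 0.067 over 40 Fischer arrays (SD), and no test was run on it. In the upper label numbers it averaged -0.228 in Long Evans, -0.129 in Sprague Dawley and -0.076 in Fischer rats. In the lower numbers it averaged -0.188, -0.200 and -0.039, so Long Evans and Sprague Dawley rats changed order between the sets. Values without the sex-discordant arrays were not computed for it.

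Grin2c encodes GluN2C, best known from cerebellar granule cells and also found in astrocytes, and it had 4 of the 7 differences that passed without adjustment, all in Long Evans rats. For Grin2c, Long Evans males averaged 9.40 ± 0.12 after perinatal 250 ppm, 9.30 ± 0.11 after perinatal 750 ppm, 9.38 ± 0.050 after postnatal 250 ppm and 9.33 ± 0.15 after postnatal 750 ppm, against 9.20 ± 0.042 in controls. After perinatal 250 ppm the males stood at 9.23, 9.53, 9.42 and 9.42, against 9.17, 9.20, 9.17 and 9.26 in the 4 control males, a difference of 0.20 (0.077 to 0.32, 1.15-fold, limma adjusted p 0.34). Only the lowest of these arrays fell within the range of the controls. After postnatal 250 ppm they stood at 9.41, 9.41, 9.40 and 9.31, all above the controls, and the difference was 0.18 (0.060 to 0.30, limma adjusted p 0.59). After postnatal 750 ppm the difference was 0.13 (0.0090 to 0.25, limma adjusted p 0.50), with arrays at 9.15, 9.40, 9.49 and 9.29. After perinatal 750 ppm it was 0.10 (-0.020 to 0.22). For Grin2c in Long Evans females the means were 9.27 ± 0.063, 9.32 ± 0.036, 9.41 ± 0.035 and 9.20 ± 0.042 in the same order of groups, against 9.28 ± 0.034 in controls. Females at postnatal 250 ppm stood at 9.40, 9.41, 9.36 and 9.45, above all 4 female controls at 9.26, 9.26, 9.33 and 9.29, and the difference was 0.12 (0.0024 to 0.24). Females at postnatal 750 ppm stood at 9.24, 9.14, 9.21 and 9.20, below all 4 controls, and the difference was -0.087 (-0.21 to 0.033). The females thus lay on either side of their controls at the 2 postnatal doses. Of all probe sets, 2.27% at postnatal 250 ppm and 2.43% at postnatal 750 ppm did not overlap in females. In males at postnatal 250 ppm it was 3.27%. Without the sex-discordant arrays, the 4 differences that passed unadjusted were 0.22, 0.20, 0.15 and 0.13, and the last of them, in females, no longer passed (-0.021 to 0.28). For Grin2c, Fischer males averaged 9.21 ± 0.071 after perinatal 250 ppm, 9.20 ± 0.13 after perinatal 750 ppm, 9.13 ± 0.15 after postnatal 250 ppm and 9.24 ± 0.097 after postnatal 750 ppm, against 9.15 ± 0.16 in controls. For Grin2c in Fischer females the means were 9.11 ± 0.20, 9.12 ± 0.067, 9.12 ± 0.17 and 9.19 ± 0.13 in the same order of groups, against 9.14 ± 0.091 in controls. Fischer differences ran from -0.029 to 0.096. For Grin2c, Sprague Dawley males averaged 9.22 ± 0.13 after perinatal 250 ppm, 9.21 ± 0.13 after perinatal 750 ppm, 9.18 ± 0.085 after postnatal 250 ppm and 9.26 ± 0.11 after postnatal 750 ppm, against 9.24 ± 0.15 in controls. For Grin2c in Sprague Dawley females the means were 9.15 ± 0.087, 9.16 ± 0.052, 9.20 ± 0.087 and 9.17 ± 0.12 in the same order of groups, against 9.21 ± 0.11 in controls. Sprague Dawley differences ran from -0.062 to 0.024, and from -0.12 to 0.0045 without the sex-discordant arrays. The means spanned 0.30, from 9.41 ± 0.035 in Long Evans females at postnatal 250 ppm to 9.11 ± 0.20 in Fischer females at perinatal 250 ppm, and 8 of the 10 highest were Long Evans groups. The largest step between neighbours was 0.051, against a pooled SD of 0.11.

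Grin2d encodes GluN2D, which in the adult hippocampus is found mainly in interneurons. Its probe set averaged 7.38 over all arrays, with 49.1% of all probe sets below it. Whether that level lies above background cannot be told from these data. For Grin2d, Fischer males averaged 7.34 ± 0.15 after perinatal 250 ppm, 7.34 ± 0.22 after perinatal 750 ppm, 7.29 ± 0.20 after postnatal 250 ppm and 7.35 ± 0.28 after postnatal 750 ppm, against 7.26 ± 0.19 in controls. For Grin2d in Fischer females the means were 7.32 ± 0.24, 7.25 ± 0.28, 7.35 ± 0.22 and 7.26 ± 0.14 in the same order of groups, against 7.40 ± 0.16 in controls. Fischer arrays were the most spread for this gene, with differences from controls between -0.16 and 0.087 and interval bounds between -0.45 and 0.38. Each Fischer group held both label-number sets, which averaged 7.16 in the upper and 7.48 in the lower numbers over the strain. The fit behind these intervals did not take the sets into account. For Grin2d, Long Evans males averaged 7.50 ± 0.040 after perinatal 250 ppm, 7.57 ± 0.073 after perinatal 750 ppm, 7.53 ± 0.15 after postnatal 250 ppm and 7.51 ± 0.031 after postnatal 750 ppm, against 7.50 ± 0.15 in controls. For Grin2d in Long Evans females the means were 7.42 ± 0.022, 7.58 ± 0.13, 7.52 ± 0.076 and 7.51 ± 0.027 in the same order of groups, against 7.50 ± 0.11 in controls. In Long Evans rats the differences ran from -0.082 to 0.084. For Grin2d, Sprague Dawley males averaged 7.33 ± 0.074 after perinatal 250 ppm, 7.26 ± 0.041 after perinatal 750 ppm, 7.34 ± 0.030 after postnatal 250 ppm and 7.34 ± 0.070 after postnatal 750 ppm, against 7.38 ± 0.12 in controls. For Grin2d in Sprague Dawley females the means were 7.27 ± 0.12, 7.32 ± 0.079, 7.27 ± 0.034 and 7.25 ± 0.045 in the same order of groups, against 7.34 ± 0.050 in controls. All 8 Sprague Dawley differences were negative, between -0.12 and -0.014. The males at perinatal 750 ppm stood at 7.27, 7.20, 7.26 and 7.30, against 7.25, 7.41 and 7.47 in the 3 male controls. That difference was -0.12 (-0.24 to -0.0019, limma adjusted p 1.0), and the groups overlapped. With the sex-discordant arrays left out, it was -0.13 (-0.27 to -0.0032), 7 of the 8 Sprague Dawley differences were negative, and Long Evans differences ran from -0.033 to 0.13. Ordered by mean, the 10 highest groups were all Long Evans. The span was 0.34, from 7.58 ± 0.13 in Long Evans females at perinatal 750 ppm to 7.25 ± 0.28 in Fischer females at the same period and dose. The labels of these end groups differ in strain only, but strain cannot be told apart from any step done strain by strain. The largest step between neighbours was 0.080, against a pooled SD of 0.14.

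Grin3a encodes GluN3A, a glycine-binding subunit of juvenile synapses that limits calcium entry, and it had the widest span of the 6 members. For Grin3a, Long Evans males averaged 8.60 ± 0.20 after perinatal 250 ppm, 8.72 ± 0.079 after perinatal 750 ppm, 8.67 ± 0.15 after postnatal 250 ppm and 8.71 ± 0.063 after postnatal 750 ppm, against 8.87 ± 0.15 in controls. Males at perinatal 250 ppm stood at 8.70, 8.76, 8.31 and 8.63, against 8.95, 8.93, 8.65 and 8.96 in controls, of which the third lay apart from the rest. Thus 2 of the exposed males lay below every control and 2 lay inside the control range. The difference was -0.27 (-0.49 to -0.060, limma adjusted p 0.58), and -0.24 (-0.48 to -0.0087) without the sex-discordant arrays. For Grin3a in Long Evans females the means were 8.73 ± 0.15, 8.82 ± 0.23, 8.70 ± 0.17 and 8.78 ± 0.13 in the same order of groups, against 8.78 ± 0.12 in controls. Long Evans females differed from their controls by -0.081 to 0.035. For Grin3a, Fischer males averaged 8.56 ± 0.11 after perinatal 250 ppm, 8.58 ± 0.052 after perinatal 750 ppm, 8.52 ± 0.056 after postnatal 250 ppm and 8.63 ± 0.15 after postnatal 750 ppm, against 8.60 ± 0.11 in controls. For Grin3a in Fischer females the means were 8.60 ± 0.18, 8.41 ± 0.34, 8.67 ± 0.084 and 8.44 ± 0.31 in the same order of groups, against 8.60 ± 0.098 in controls. In the Fischer females a single array at perinatal 750 ppm (7.93) and another at postnatal 750 ppm (7.98) lay far below the rest of their groups, which stood between 8.44 and 8.68. For Grin3a, Sprague Dawley males averaged 8.45 ± 0.13 after perinatal 250 ppm, 8.29 ± 0.12 after perinatal 750 ppm, 8.45 ± 0.17 after postnatal 250 ppm and 8.50 ± 0.12 after postnatal 750 ppm, against 8.49 ± 0.12 in controls. For Grin3a in Sprague Dawley females the means were 8.45 ± 0.12, 8.38 ± 0.24, 8.45 ± 0.20 and 8.37 ± 0.14 in the same order of groups, against 8.47 ± 0.19 in controls. Of the 24 Grin3a differences 20 were negative, 7 of 8 in Long Evans and in Sprague Dawley rats and 6 of 8 in Fischer rats, but 1 passed without adjustment and none with it. Once the sex-discordant arrays were left out, 18 were negative, of which 5 were in Long Evans rats. The means spanned 0.58, from 8.87 ± 0.15 in Long Evans male controls to 8.29 ± 0.12 in Sprague Dawley males at perinatal 750 ppm. Of the 10 highest 9 were Long Evans, and of the 10 lowest 8 were Sprague Dawley. The largest step between neighbours was 0.077, against a pooled SD of 0.16.

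**Figure D2:**
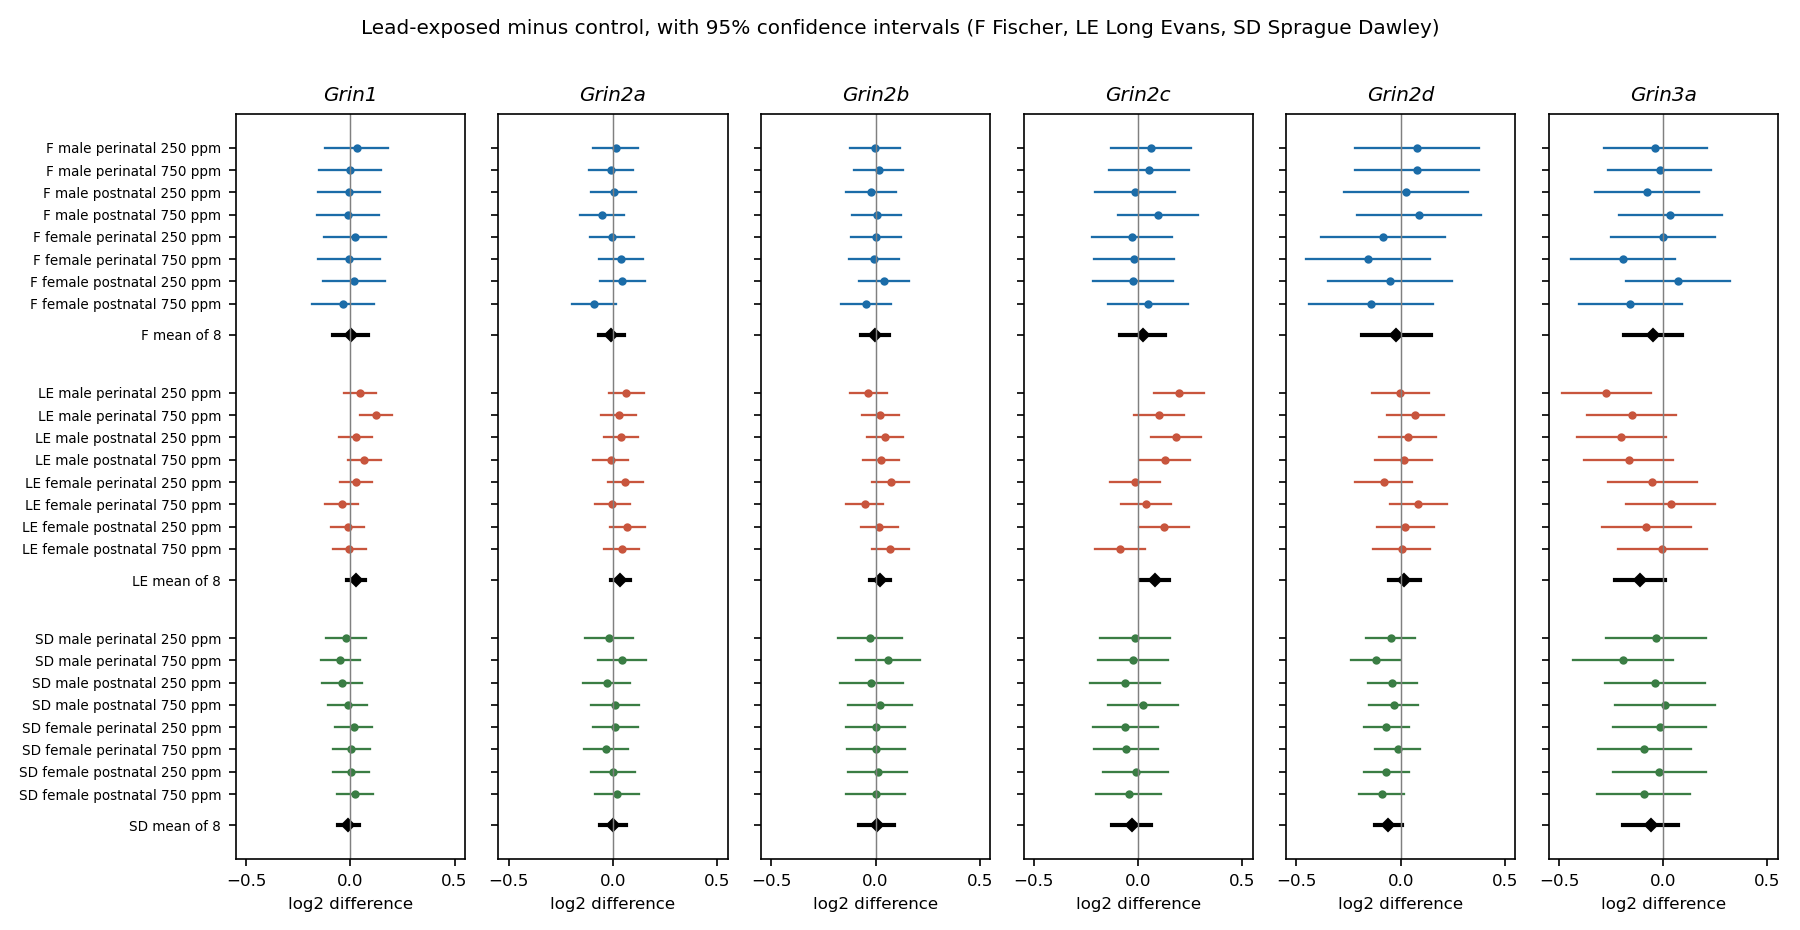
Lead-exposed minus control, in log2 units, for each subunit gene in the 8 exposed groups of each strain, with 95% confidence intervals from limma; the black mark is the mean of the 8 groups of a strain. Nearly all intervals cover 0, and the means of the 8 groups lie between -0.11 and 0.083.

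The mean effect of the 8 exposed groups gave narrower intervals than the single groups. For Grin1 it was 0.0011 (-0.082 to 0.084) in Fischer, 0.028 (-0.016 to 0.073) in Long Evans and -0.0095 (-0.062 to 0.043) in Sprague Dawley rats. For Grin2a it was -0.0073 (-0.067 to 0.052), 0.036 (-0.011 to 0.083) and 0.00016 (-0.063 to 0.063) in the same order of strains. For Grin2b it was -0.0014 (-0.068 to 0.065), 0.022 (-0.028 to 0.071) and 0.0060 (-0.078 to 0.090). These 9 intervals reach no higher than 0.090 and no lower than -0.082. Without the sex-discordant arrays the Long Evans effects were larger, at 0.043 (-0.011 to 0.097) for Grin1, 0.056 (-0.0016 to 0.11) for Grin2a and 0.054 (-0.0056 to 0.11) for Grin2b, and none was called.
Grin2d gave -0.021 (-0.19 to 0.15), 0.019 (-0.058 to 0.095) and -0.060 (-0.12 to 0.0045), again for Fischer, Long Evans and Sprague Dawley rats, and 0.046 (-0.051 to 0.14) in Long Evans rats without the sex-discordant arrays. Grin2c gave 0.022 (-0.086 to 0.13) in Fischer and -0.031 (-0.12 to 0.061) in Sprague Dawley rats. In Long Evans rats the 32 exposed arrays ran from 9.14 over a median of 9.34 to 9.53, against 9.17, 9.26 and 9.33 in the 8 controls. The exposed arrays reached higher but covered the whole control range, and the mean effect was 0.083 (0.016 to 0.15, 1.06-fold, limma adjusted p 0.50). Leaving out each animal in turn kept it between 0.076 and 0.093, and it was 0.097 (0.011 to 0.18) without the sex-discordant arrays. Grin3a gave -0.047 (-0.19 to 0.092) in Fischer and -0.059 (-0.19 to 0.073) in Sprague Dawley rats, where it was -0.098 (-0.24 to 0.048) without the sex-discordant arrays. In Long Evans rats the exposed arrays ran from 8.31 over a median of 8.71 to 9.09, against 8.65, 8.85 and 8.96 in controls. The exposed arrays extended past the controls on both sides, and the mean effect was -0.11 (-0.23 to 0.0074, limma adjusted p 0.70). It was -0.067 (-0.22 to 0.083) without the sex-discordant arrays. Leaving those arrays out thus moved the Grin3a effect by more than 1.5 times in both strains that held them, toward 0 in Long Evans and away from 0 in Sprague Dawley rats. The choroid plexus markers had a median difference of -0.37 in the same Long Evans contrast with 0 of 9 called, and with their mean as a covariate the Grin3a effect was -0.13 and the Grin2c effect 0.080. None of the 18 mean effects was called, against 0.0764% of all probe set tests (0% in Fischer, 0.212% in Long Evans and 0.0171% in Sprague Dawley rats), and 1 passed without adjustment.

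Neither sex, dose nor period set the effects apart past the threshold. The male effect minus the female effect was called by limma for 0 of 18 gene and strain combinations (0.00114% of all tests, all of them in Sprague Dawley rats, where the share was 0.00342%) and passed unadjusted in 1, Grin2c in Long Evans rats. There the effect was 0.15 in males and 0.014 in females, a difference of 0.14 (0.0030 to 0.27, limma adjusted p 1.0), and of 0.15 (-0.024 to 0.32) without the sex-discordant arrays. Exposure at 750 ppm against 250 ppm was called for 0 of 18 (0.0434% of all tests, with 0.0719% in Fischer, 0.0548% in Long Evans and 0.00342% in Sprague Dawley rats), and 2 passed unadjusted, both in Long Evans rats. Grin2c averaged 9.29 in rats at 750 ppm and 9.36 in rats at 250 ppm, a difference of -0.076 (-0.14 to -0.016, limma adjusted p 0.54). Grin2a averaged 11.64 at 750 ppm and 11.68 at 250 ppm, a difference of -0.044 (-0.086 to -0.0024). For these genes the higher dose had the lower mean. Postnatal against perinatal exposure gave 0 calls of 18 (0.0365% of all tests), none passed unadjusted, and the differences ran from -0.034 to 0.048. Female minus male controls gave 0 calls of 18 (0.00114%), none unadjusted, and differences from -0.089 to 0.14. Without the sex-discordant arrays the differences ran from -0.12 to 0.14, with 0 called. In Fischer and in Long Evans rats 0% of all probe sets were called in this contrast. Even the X-linked transcripts used to judge the sex labels were thus not called there, so the contrast says little about sex differences of the members. The mean lead effect differed between strains in 0 of 18 comparisons (0.073%), none unadjusted. The largest of these differences, Grin2c in Long Evans minus Sprague Dawley rats, was 0.11 (-0.012 to 0.24), and all intervals lay between -0.24 and 0.24. With the sex-discordant arrays left out, it was 0.13 (-0.014 to 0.28), and Grin3a in the same comparison was 0.031 in place of -0.053. The Sprague Dawley dose difference of Grin3a was then -0.10 (-0.23 to 0.024), in place of -0.066 with all arrays. With limma these 5 counts of 0 held under every alternative and with each animal left out in turn.

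Some subunits differed between the strains. In control rats 4 of 18 strain differences were called, against 20% of all probe set tests, so the members were called about as often as any probe set. Grin3a was higher in Long Evans than in Sprague Dawley and Fischer controls. The 8 Long Evans controls ran from 8.65 over a median of 8.85 to 8.96, the 7 Sprague Dawley controls had 8.27, 8.48 and 8.63, and the 8 Fischer controls 8.47, 8.59 and 8.75. Every Long Evans control was above every Sprague Dawley control. The difference was 0.35 (0.18 to 0.52, 1.28-fold, limma adjusted p 0.00095) against Sprague Dawley and 0.23 (0.068 to 0.39, limma adjusted p 0.027) against Fischer rats, where the ranges overlapped. Once the sex-discordant arrays were left out, these were 0.29 (limma adjusted p 0.042) and 0.18 (limma adjusted p 0.18), so the call against Fischer was lost. Within the upper and the lower label numbers, the difference from Sprague Dawley controls was 0.28 (limma adjusted p 0.094) and 0.45 (limma adjusted p 0.0036), and that from Fischer controls was 0.24 (limma adjusted p 0.12) and 0.22 (limma adjusted p 0.14). Against Fischer the call was also lost when 6 of the 80 animals were left out singly.
Grin2a was lower in Long Evans and Sprague Dawley than in Fischer controls. Long Evans controls had 11.57, 11.62 and 11.71 as lowest, median and highest, Sprague Dawley controls 11.57, 11.65 and 11.71, and Fischer controls 11.69, 11.73 and 11.77. The Fischer range overlapped with the other strains at its lower end. The difference was -0.11 (-0.17 to -0.046, 0.927-fold, limma adjusted p 0.0065) for Long Evans and -0.096 (-0.16 to -0.030, limma adjusted p 0.048) for Sprague Dawley rats. After a further quantile normalization the limma adjusted p was 0.14 and 0.11, and the Sprague Dawley call was also lost without the sex-discordant arrays (limma adjusted p 0.055). Within the upper and the lower label numbers, Grin2a in Long Evans minus Fischer controls was -0.14 (limma adjusted p 0.029) and -0.080 (limma adjusted p 0.25). Grin2d in Long Evans minus Fischer controls was 0.17 (0.026 to 0.30, limma adjusted p 0.073), which did not pass. Strain and any step done strain by strain cannot be told apart, and strain differences in sequence under the probes were not analysed here.

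Exposed rats gave the same comparison with 32 arrays a strain, and 11 of 18 differences were called, against 50.3% of all tests (57.7% for Long Evans minus Fischer, 35.2% for Sprague Dawley minus Fischer and 57.8% for Long Evans minus Sprague Dawley rats). Long Evans rats were higher than Fischer rats for Grin2b by 0.080 (0.041 to 0.12), Grin2c by 0.16 (0.11 to 0.22), Grin2d by 0.20 (0.14 to 0.27) and Grin3a by 0.16 (0.084 to 0.24). They were lower for Grin2a by a difference of -0.067 (-0.099 to -0.035). Against Sprague Dawley rats they were higher for Grin2b by 0.062 (0.023 to 0.10), Grin2c by 0.13 (0.078 to 0.19), Grin2d by 0.22 (0.15 to 0.29) and Grin3a by 0.30 (0.22 to 0.38). Long Evans rats thus had the highest exposed means of Grin2b, Grin2c, Grin2d and Grin3a. Sprague Dawley minus Fischer was -0.089 (-0.12 to -0.057) for Grin2a and -0.13 (-0.21 to -0.054) for Grin3a. All 11 of these calls were also made without the sex-discordant arrays. Grin1 was called in no strain comparison over all label numbers, except that after a further quantile normalization it passed in exposed Long Evans minus Fischer rats (0.041). Limma adjusted p of these calls ran from 6.7e-10 for Grin3a in Long Evans against Sprague Dawley rats to 0.0054 for Grin3a in Sprague Dawley against Fischer rats. In the same comparisons the interneuron markers were higher in Long Evans than in Fischer rats in 5 of 8 and lower in 1, and higher than in Sprague Dawley rats in 5 of 8. The interneuron array means ran from 9.68 to 10.01 in exposed Long Evans rats, 9.62 to 9.82 in exposed Sprague Dawley rats and 9.46 to 9.86 in exposed Fischer rats. Of 7 astrocyte markers, 5 were lower and 1 higher in Long Evans than in Fischer rats, and 6 were lower than in Sprague Dawley rats. The part of these markers in the strain differences was not tested.

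**Figure D3:**
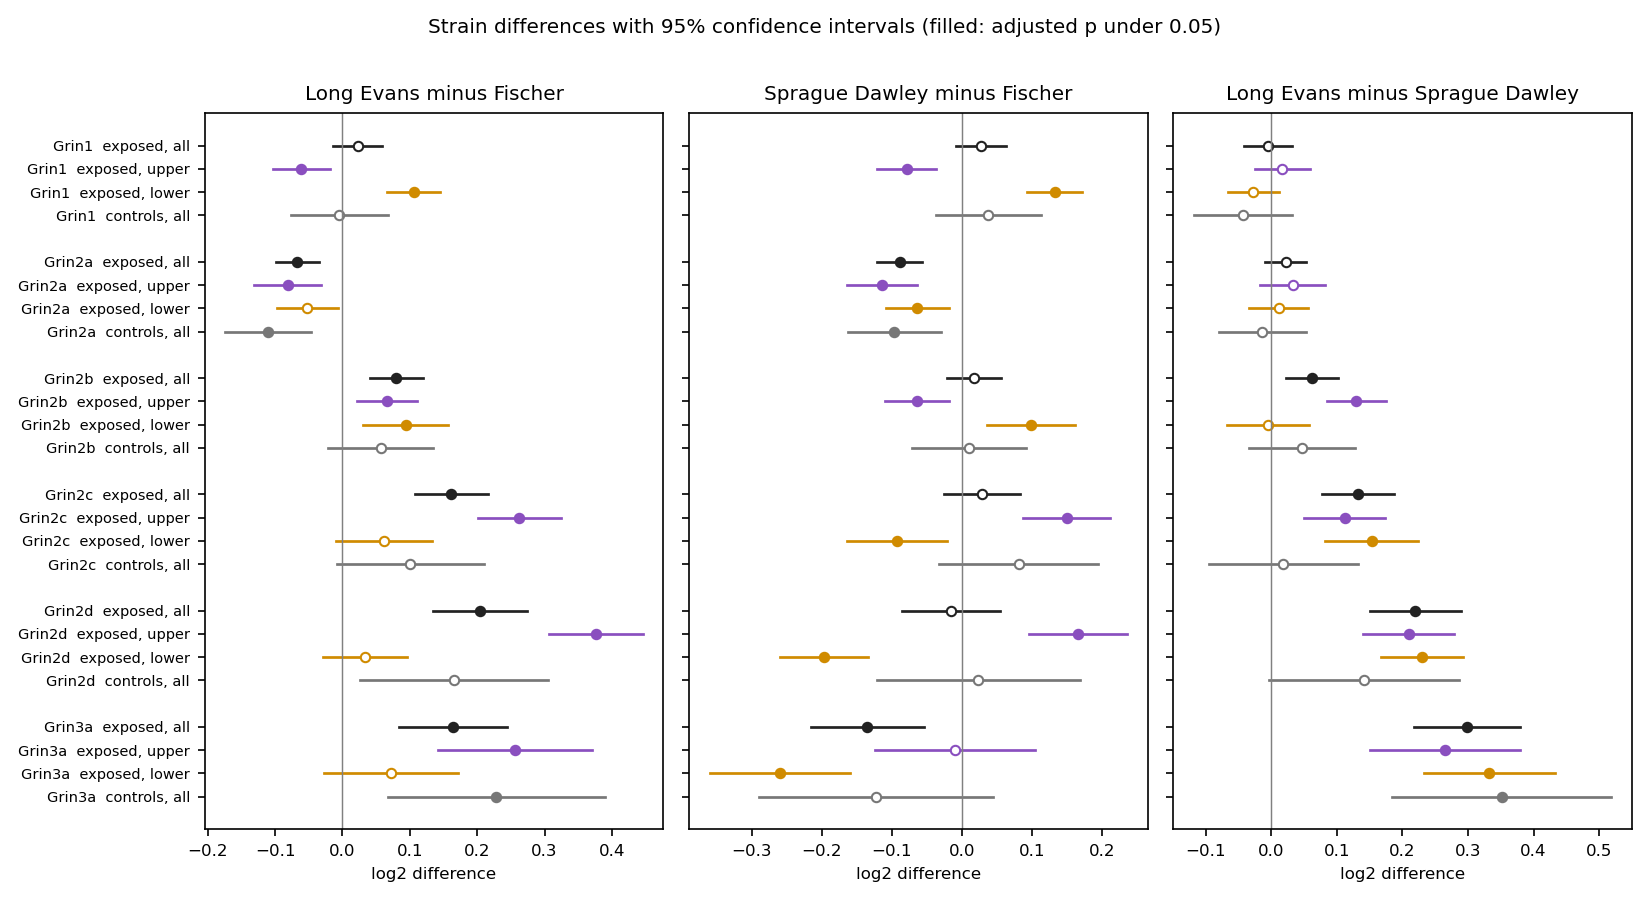
Difference between strains, in log2 units, for the 6 subunit genes, with 95% confidence intervals from limma; the 3 panels are Long Evans minus Fischer, Sprague Dawley minus Fischer and Long Evans minus Sprague Dawley rats. Rows give exposed rats, exposed rats of the upper and of the lower label numbers, and controls, and filled marks have an adjusted p under 0.05; Grin2d in Sprague Dawley minus Fischer rats lies at 0.17 in the upper and -0.20 in the lower numbers.

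The strain differences that involve Fischer rats changed with the label numbers. Among exposed rats, Grin2d in Sprague Dawley minus Fischer was 0.17 in the upper and -0.20 in the lower label numbers. Grin1 was -0.078 and 0.13 in the same comparison, Grin2b -0.064 and 0.099, and Grin2c 0.15 and -0.092. In each of these genes the sign turned between the sets. Grin3a was -0.0091 in the upper (limma adjusted p 0.91) and -0.26 in the lower numbers, so its call over all numbers was not made in the upper set alone, while Grin2a was called in both (-0.11 and -0.063). In Long Evans minus Fischer rats, Grin1 was -0.061 in the upper and 0.11 in the lower numbers, and Grin2a, Grin2c, Grin2d and Grin3a were not called in the lower numbers alone. Long Evans minus Sprague Dawley does not involve Fischer rats, and Grin2c, Grin2d and Grin3a kept their sign there in both sets, whereas Grin2b was 0.13 in the upper and -0.0053 in the lower numbers.
The label-number contrast itself was called for 6 of 18 gene and strain combinations, against 26.6% of all tests, and the same 6 were called without the sex-discordant arrays. In Fischer rats 5 of the 6 genes differed, where 60.9% of all probe sets were called. Grin2d ran from 6.90 over a median of 7.15 to 7.40 in the 20 arrays of upper numbers, against 7.30, 7.49 and 7.67 in the 20 of lower numbers. The overlap was a narrow band, and the difference was -0.32 (-0.39 to -0.25, 0.799-fold, limma adjusted p 6.1e-10). Grin1 differed in the other direction, with 11.29, 11.37 and 11.49 in upper and 11.15, 11.25 and 11.31 in lower numbers, a difference of 0.15 (0.11 to 0.19, limma adjusted p 5.7e-08). Grin2c differed by -0.19 (-0.24 to -0.14), Grin3a by -0.18 (-0.27 to -0.088) and Grin2b by 0.057 (0.010 to 0.10; -0.012 and not called after a further quantile normalization), while Grin2a differed by 0.020 (-0.024 to 0.065). The median of all probe sets in this contrast was -0.067. Grin2d averaged 7.14 in upper and 7.48 in lower numbers of exposed Fischer rats, and 7.20 in upper and 7.46 in lower numbers of Fischer controls. Grin1 averaged 11.39 in upper and 11.23 in lower numbers of exposed rats, and 11.35 and 11.26 in controls. Grin3a averaged 8.45 and 8.65 in exposed rats, and 8.54 and 8.66 in controls. The sign was the same in both treatments for these genes, and whether the size differed was not tested. In Sprague Dawley rats Grin2b differed by -0.099 (-0.15 to -0.045, limma adjusted p 0.0070; 18.9% of all probe sets called). In Long Evans rats none of the 6 differed (0.0993% called), with differences from -0.029 to 0.026 and none passing unadjusted.
In the Fischer contrast all 7 astrocyte markers were higher in the upper numbers, with a median difference of 0.23. Of 8 interneuron markers 3 were higher and 5 lower, of 8 principal neuron markers 3 were higher and 3 lower, and of 5 thalamic markers 1 was higher and 3 lower. Both neocortical markers and 3 of 7 cerebellar markers were lower, and 0 of 9 choroid plexus markers were called. The part of these markers in the subunit differences was not tested. Each group held both sets in equal number, apart from the Sprague Dawley male controls, and with the label-number set as a block no lead effect was called. The intervals of the 144 differences from controls then lay between -0.49 and 0.32.

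**Figure D4:**
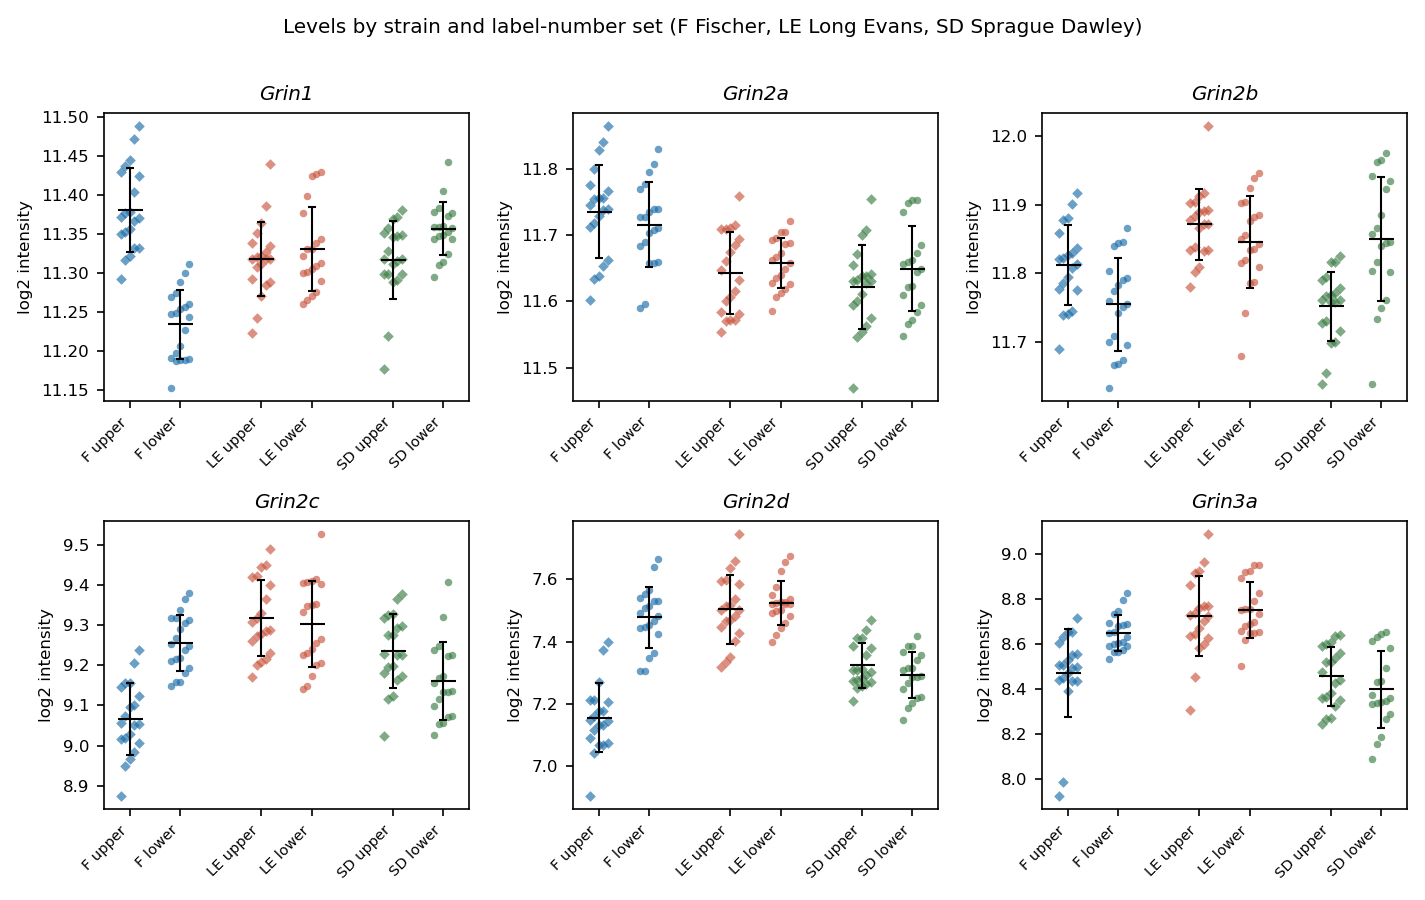
Log2 intensity of each subunit gene by label-number set, with the upper numbers left of the lower numbers in each strain; points are rats and bars the mean ± SD. In Fischer rats Grin2d has means of 7.16 in the upper and 7.48 in the lower numbers and Grin1 11.38 and 11.23, while the sets of Long Evans rats overlap over most of their range.

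Some pairs of subunits varied together. After the mean of each strain and label-number set was taken away, Grin2a and Grin2b correlated at 0.47 over all arrays, Grin1 and Grin2a at 0.46, Grin2d and Grin3a at 0.40 and Grin1 and Grin2b at 0.34. Grin1 with Grin3a stood at 0.11 and Grin1 with Grin2d at 0.063, and at -0.16 and -0.36 with those means left in. Other pairs lay between -0.054 and 0.21, and Grin2b with Grin2c was 0.38 in Fischer but -0.23 in Sprague Dawley rats. Over all other genes, the 99th percentile of the correlation was 0.38 for Grin1, 0.42 for Grin2a, 0.46 for Grin2b and 0.41 for Grin2d. Grin1 with Grin2b, and Grin2d with Grin3a, thus did not stand out from other genes by this mark. These values share array quality and dissection, and they are descriptions. By the same measure the 3 genes most like each member were taken from 15304 probe sets with 1 symbol. Grin3a had the closest, Tpbg (0.79), Nos1 (0.78) and Rxrg (0.74), where the 99th percentile of all genes was 0.51. Nos1 is neuronal nitric oxide synthase, Rxrg a retinoid receptor and Tpbg a trophoblast glycoprotein, and each lay at 0.71 or above within every strain. Grin2a was nearest to Prox1 (0.66), a transcription factor of dentate granule cells, Sphkap (0.64) and Sema5a (0.62). Grin2b was nearest to Slc8a1 (0.66), a sodium and calcium exchanger, Dmd (0.65), which encodes dystrophin, and Gnaq (0.64). Grin1 was nearest to Dlgap2 (0.56), a postsynaptic scaffold, Kmt2d (0.52) and Clip3 (0.51). Grin2d was nearest to Sdc3, Abhd17a and Sorcs2 (0.54 each), and Grin2c to Ttbk1 (0.49), Abhd3 (0.47) and Map3k10 (0.47).

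A list of 34 genes that scaffold, modulate or follow NMDA receptors was measured beside the subunits, and 33 had a probe set. None of the 33 was called by limma in the mean lead effect, the dose or period contrast or the strain difference of the lead effect. Their mean lead effects had a median of -0.0044 in Fischer, 0.0079 in Long Evans and -0.0073 in Sprague Dawley rats, against -0.0043, 0.0010 and -0.0037 over all probe sets. In controls, 13 of 33 differed between Long Evans and Fischer rats (6 higher, 7 lower), where 25.1% of all probe sets were called. Of these the 5 largest were Shank1 (0.31), Dlgap3 (0.27) and Dlgap4 (0.23), which are postsynaptic scaffolds, Homer1 (-0.28), a scaffold linking metabotropic receptors, and Slc1a3 (-0.26), the astrocytic glutamate transporter. Against Sprague Dawley controls 15 of 33 differed (10 higher, 5 lower; 24.5% of all), led by Dlgap3 (0.33), Slc1a3 (-0.28), Shank1 (0.28), Grina (0.25) and Dlgap4 (0.25). Between Sprague Dawley and Fischer controls 4 of 33 differed (1 higher, 3 lower; 10.5% of all), which were Nos1 (0.19), Neto1 (-0.19), Actn2 (-0.19) and Dlgap1 (-0.09). Neto1 and Actn2 encode proteins that bind NMDA receptors. Slc1a3 is itself among the 7 astrocyte markers. With Slc1a3 counted, 5 of 7 were lower in Long Evans than in Fischer controls and 3 of 7 lower than in Sprague Dawley controls.

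**Figure D5:**
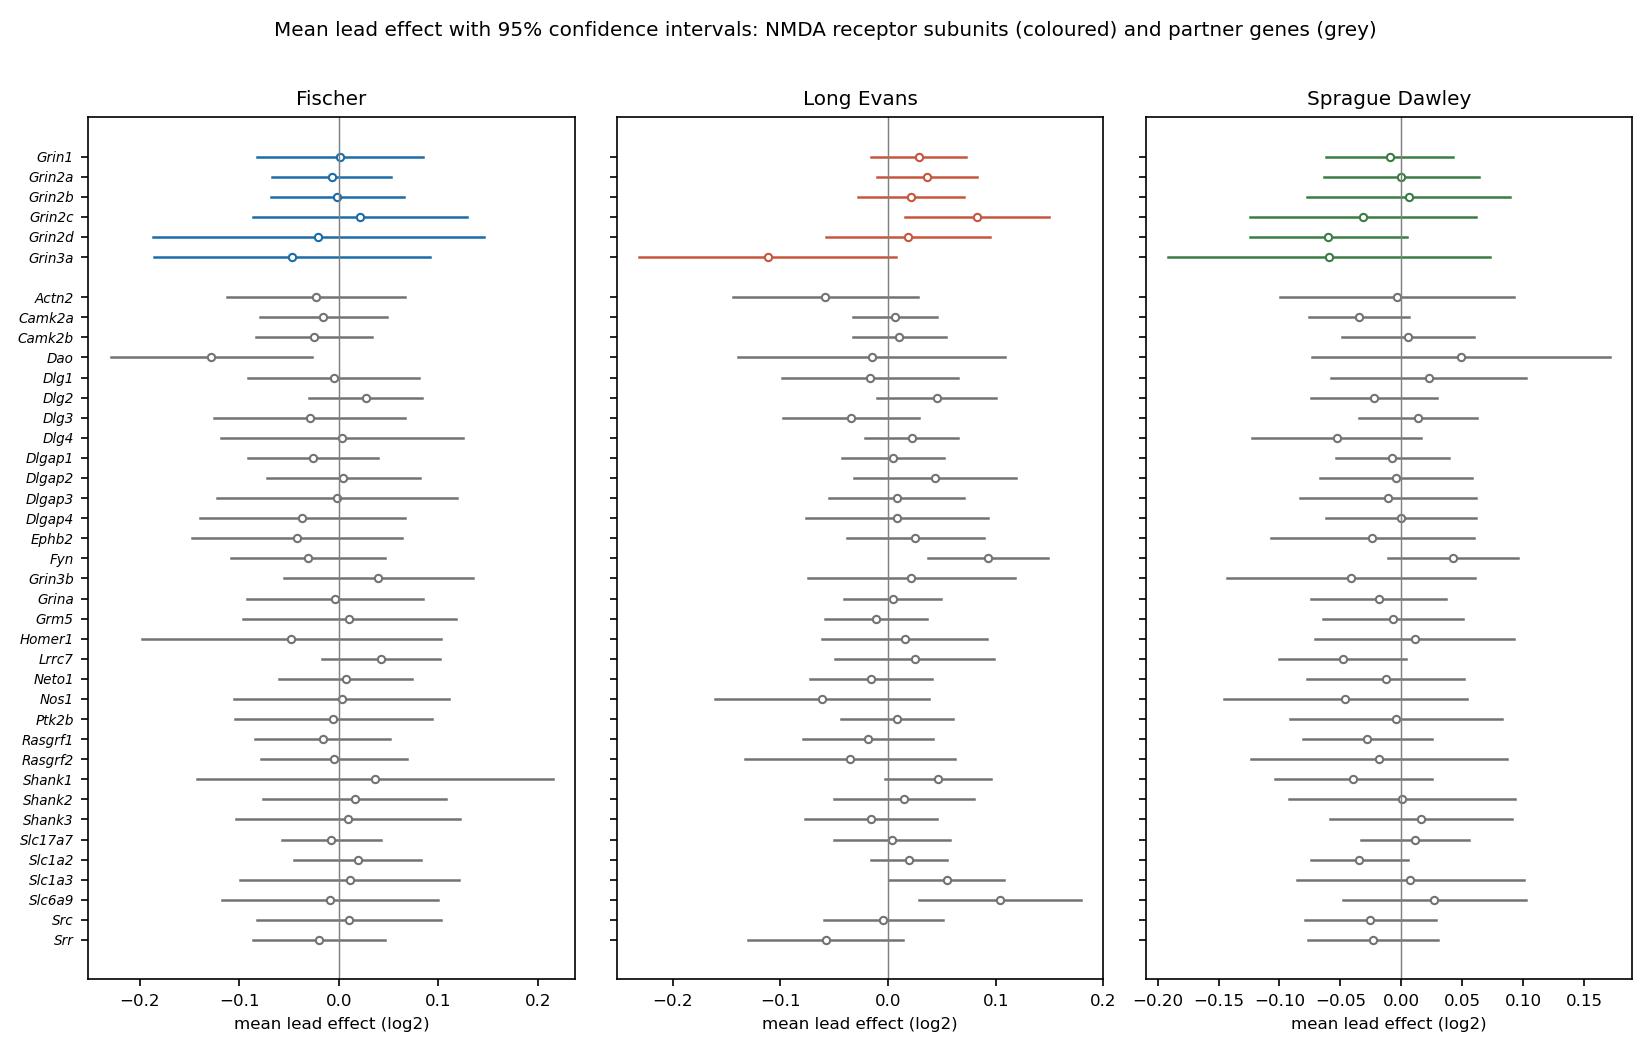
Mean lead effect of each strain, lead-exposed minus control in log2 units with 95% confidence intervals, for the 6 subunit genes (coloured) and 33 genes that work with NMDA receptors (grey). None of the 39 genes passed the threshold in any of the 3 strains.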

How the data were processed

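For each rat, hybridised alone to a 1-colour array, the authors deposited log2 intensities of the probe sets, made with RMA in Partek, per the submitters' processing notes; versions and any batch correction are not given in the sources used here. RMA leaves no background reading per probe set, so whether a dim probe set lies above background cannot be told. This holds most for Grin2d, the dimmest member. The number of arrays limits the precision. Hippocampal RNA was isolated on columns and checked for quality, per the labels' protocols. Groups came from the labels alone. Symbols came from the platform's annotation (15310 probe sets with 1 symbol, 323 with several, 13581 with none), and positions from GRCr8 by gene identifier.

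Group means were fitted with limma 3.58.1 (R 4.3.3, data.table at version 1.17.8), within each strain for lead, sex, dose and period contrasts and over all 30 groups for strain contrasts. Fold changes are 2 to the power of a log2 difference. Two-sided moderated tests were adjusted by Benjamini-Hochberg over all 29214 probe sets of a contrast, and a call is an adjusted p under 0.05. Intervals are at the 95% level. The code was tested on simulated data. Figures used matplotlib 3.10.9 and tables pandas 2.3.3 in Python 3.11.15.

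The 6 members, the list of 34 partner genes and the 7 marker lists were chosen with earlier results of these data known. All members are named whatever their result; partner genes are named if called in a lead, dose or period contrast or among the 5 largest called strain differences of controls; and each member has its 3 most alike genes. Alternatives were 1 fit for all groups (for strain contrasts, a fit of the 2 strains compared), a further quantile normalization, array weights, a filter that kept probe sets brighter than the 40th percentile, the label-number set as a block, leaving out the arrays against their sex label, the choroid plexus mean as a covariate and leaving out each animal in turn. Fits of only the upper or only the lower label numbers were added after the data were seen.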

Additional observations from a re-analysis of the deposited data

Results flagged for a closer look

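Of 174 combinations of a gene and a group of 4 rats, 10 had an array whose gap to the nearest other made up most of the range. Dixon's test at the 95% level was used, where chance gives about 1 in 20 for independent values of 1 uniform group. The genes share the same arrays, and Fischer groups mix the 2 label-number sets, so that rate is only a rough guide here. For Grin1 this was a Fischer male control at 11.25, with the others from 11.31 to 11.32. Grin2a had 2 such arrays, a Fischer female at postnatal 750 ppm at 11.78 (others 11.59 to 11.60) and a Long Evans male at perinatal 750 ppm at 11.57 (others 11.69 to 11.70). Grin2b had a Fischer male at postnatal 250 ppm at 11.67 (others 11.79 to 11.81) and a Sprague Dawley female at perinatal 250 ppm at 11.87 (others 11.76 to 11.77). For Grin2c a Long Evans male at postnatal 250 ppm stood at 9.31 (others 9.40 to 9.41) and a Sprague Dawley male at postnatal 750 ppm at 9.10 (others 9.30 to 9.33). A Sprague Dawley female at postnatal 250 ppm had Grin2d at 7.22 (others 7.28 to 7.29). Grin3a was low in a Fischer male at perinatal 250 ppm at 8.39 (others 8.60 to 8.63) and in a Long Evans male control at 8.65 (others 8.93 to 8.96).

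The difference between upper and lower label numbers was not the same in the 3 strains, by limma's test of the difference of differences. Against Fischer rats, the Long Evans difference was lower by -0.16 for Grin1, and higher by 0.21 for Grin2c and 0.30 for Grin2d (limma adjusted p from 7.7e-08 to 3.1e-06), where 42.3% of all probe sets were called. Against Fischer rats, the Sprague Dawley difference was lower by -0.19 for Grin1 and -0.16 for Grin2b, and higher by 0.26 for Grin2c, 0.35 for Grin2d and 0.23 for Grin3a (limma adjusted p from 6.6e-11 to 0.0025), where 56.1% were called. Long Evans minus Sprague Dawley was 0.12 for Grin2b (limma adjusted p 0.0048), where 9.95% were called. The labels used here do not say what the animal numbers stand for.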

How the results depend on the processing

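With limma, the counts of 0 called lead, sex, dose and period differences and of 0 strain differences of the lead effect held under each alternative listed and with each animal left out. The count of 4 called strain differences of controls was 2 without the 8 arrays against their sex label, 2 with only the lower and 4 with only the upper label numbers, 5 with array weights, 6 with the label-number block, and 2 to 5 with 1 animal left out. Array weights and the block kept all 4 and added Grin2d in Long Evans minus Fischer controls, and the block also added Grin2d in Long Evans minus Sprague Dawley controls. Quantile normalization also gave 4, of which 2 were shared: both Grin2a calls were lost, and Grin2b and Grin2d in Long Evans minus Fischer controls were gained. The upper and the lower label numbers each shared 1 of the 4. The count was 2 without either of 2 Fischer male controls (replicates 3 and 4) or a Fischer female control (replicate 4). Grin2a in Sprague Dawley minus Fischer controls was also lost in a fit of the 2 strains alone (limma adjusted p 0.090), where Grin2d in Long Evans minus Sprague Dawley controls was gained, and in 13 of 79 fits that left out an animal. The 32 called strain differences of controls among partner genes were 20 with only the lower label numbers and 28 to 33 with an animal left out. The 11 called strain differences of exposed rats were 13 after quantile normalization, 15 with only the upper label numbers (10 shared), 11 with only the lower (6 shared) and 11 with any animal left out. The 6 called label-number differences were 5 after quantile normalization and 5 to 7 with an animal left out. The sign turned for Grin2b in exposed Long Evans minus Sprague Dawley rats with only the lower label numbers (-0.0053, limma adjusted p 0.91), and for Grin2b between Fischer label-number sets after quantile normalization (-0.012, limma adjusted p 0.66). The cause was not tested. No paired analysis was possible because the labels give each animal its own number, so groups share none.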
